A study of Mus musculus with 12 samples.

Results

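The genes described here are 45 genes of DNA replication, chosen by their symbols from the enzymes and loading factors that copy the genome in S phase, out of 55536 features counted in splenic B cells of mice. They comprise 19 genes of replication origins and the helicase, 17 of the polymerases and their sliding clamp, 5 of nucleotide supply, and 4 of chromatin assembly and maintenance methylation, and every symbol matched 1 Ensembl gene. All 45 passed the filter on low counts in every comparison. Libraries came from 3 control mice, which carried 1 copy of a Cre allele that acts in the B lineage, and 3 Pdap1-deficient mice, which carried the same Cre allele and the floxed Pdap1 allele on both chromosomes (Pdap1F/F). The Cre recombinase removes the floxed part of Pdap1. Splenic B cells of each mouse, enriched by depletion of CD43+ cells, were split between 2 cultures of 48 h, the first with LPS and IL-4, which induces switching to IgG1, the other with LPS, BAFF and TGFβ, which induces switching to IgG2b. This gave 12 libraries in 4 groups of 3, and both cultures of a mouse carry its number. The groups are called LPS-IL-4 control, LPS-IL-4 Pdap1-deficient, LPS-BAFF-TGFβ control and LPS-BAFF-TGFβ Pdap1-deficient.

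Replication begins when the origin recognition complex, Cdc6 and Cdt1 load the Mcm helicase onto DNA before S phase, while geminin (Gmnn) restrains Cdt1 once S phase has begun. The kinase Cdc7, Mcm10, Cdc45 and the GINS complex then turn the loaded helicase into a moving one. DNA polymerase α and its primase start each strand, the clamp loader (Rfc subunits) sets the clamp Pcna on the DNA, polymerases δ and ε extend it, and Fen1 and Lig1 process and seal the lagging strand fragments. Ribonucleotide reductase (Rrm1, Rrm2), thymidylate synthase (Tyms), thymidine kinase (Tk1) and dUTPase (Dut) supply the nucleotides, and Chaf1a and Chaf1b, with Uhrf1 and Dnmt1, restore nucleosomes and CpG methylation behind the fork. Many of these genes are transcribed at the start of S phase under the control of E2F factors, and mature B cells, which rest in the spleen, divide rapidly once stimulated with LPS.

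Because E2F sites are a known feature of such promoters, the RefSeq promoters of the mouse (GRCm38.p6, 250 bases before to 50 bases after the start) were searched on both strands for TTTCGCGC, TTTGGCGC, TTTCCCGC and TTTGCCGC. The table held 37 of the 45 genes. Of these, 16 (43.2%) had at least 1 match, against 2.6% of the 27025 genes in the table and 3.29% of the 17492 protein-coding ones. Matches were found in 8 of 14 origin and helicase genes, 6 of 14 polymerase and clamp genes, 2 of 4 chromatin genes and 0 of 5 nucleotide supply genes. The 160 bases before the RefSeq start are shown for 5 genes with a match there and for Dut. The 5 cover the helicase (Mcm5, Mcm6), its loaders (Orc1, Cdc6) and polymerase α (Pola1). Dut, the only one of the 45 genes that passed edgeR's test between genotypes, had no match in its RefSeq promoter. For Dut, Cdc6 and Orc1 the RefSeq start lies inside the gene as GENCODE places it. All bases shown for Dut and Cdc6 lie inside it (GENCODE starts 125247190 and 98907801). The bases before the GENCODE starts of Dut and Cdc6 were not searched. Capitals mark the matches, written 5′ to 3′ in the direction of the gene. In Mcm5 and Mcm6, 2 matches of opposite strands overlap and appear as 1 run of capitals.
Mcm5 (chr8:75109349-75109508, plus strand): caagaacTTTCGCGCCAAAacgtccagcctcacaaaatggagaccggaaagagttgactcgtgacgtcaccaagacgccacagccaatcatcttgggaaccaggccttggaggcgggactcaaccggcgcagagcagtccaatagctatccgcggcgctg
Mcm6 (chr1:128359706-128359865, minus strand): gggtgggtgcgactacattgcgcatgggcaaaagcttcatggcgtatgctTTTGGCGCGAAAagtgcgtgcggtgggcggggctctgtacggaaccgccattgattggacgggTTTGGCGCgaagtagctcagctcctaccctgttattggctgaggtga
Orc1 (chr4:108579294-108579453, plus strand): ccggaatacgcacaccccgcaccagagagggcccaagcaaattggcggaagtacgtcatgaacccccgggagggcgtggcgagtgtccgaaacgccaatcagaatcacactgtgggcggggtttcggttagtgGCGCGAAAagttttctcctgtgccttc
Cdc6 (chr11:98907991-98908150, plus strand): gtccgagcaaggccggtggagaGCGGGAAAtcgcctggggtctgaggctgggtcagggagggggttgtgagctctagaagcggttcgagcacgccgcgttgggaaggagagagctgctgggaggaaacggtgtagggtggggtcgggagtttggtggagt
Pola1 (chrX:93632156-93632315, minus strand): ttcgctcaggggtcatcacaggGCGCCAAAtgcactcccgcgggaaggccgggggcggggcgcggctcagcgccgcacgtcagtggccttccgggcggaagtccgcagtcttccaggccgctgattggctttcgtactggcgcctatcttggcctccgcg
Dut (chr2:125247355-125247514, plus strand): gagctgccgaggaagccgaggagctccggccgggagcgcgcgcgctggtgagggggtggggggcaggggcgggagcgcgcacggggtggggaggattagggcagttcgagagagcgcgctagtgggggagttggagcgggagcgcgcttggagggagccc

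Depth was between 4579793 and 15869143 counts in 11 of the libraries and 69500640 in the LPS-BAFF-TGFβ library of control mouse 1. No library was a copy of another of its group. The replication genes took between 0.786% and 1% of the counts of a library. B cell markers (Cd79a, Cd79b, Ms4a1 and Pax5) summed to between 1700.0 and 2770.0 CPM (the count as a share of the library total, which was scaled by the TMM method). T cell markers summed to between 0.322 and 19.1 CPM and natural killer cell markers to between 0.508 and 3.1 CPM. Plasmablast markers summed to between 449 and 890.0 CPM and erythroid markers to between 8.17 and 23.5 CPM. The plasmablast sums lay apart with LPS-IL-4, at 621 to 672 CPM in control and 746 to 890.0 CPM in Pdap1-deficient mice. The single markers differed: Prdm1 and Irf4 lay higher in Pdap1-deficient mice, and Xbp1 and Jchain overlapped. Sdc1 lay lower, at 6.41, 8.97 and 9.88 CPM in control and 5.82, 3.95 and 5.28 CPM in Pdap1-deficient mice. With LPS-BAFF-TGFβ the plasmablast sums overlapped. Between stimulations in control mice, 4 plasmablast markers passed edgeR's test as lower with LPS-BAFF-TGFβ and 1 as higher. Over all genes tested there, 9.33% passed as lower and 9.99% as higher. Erythroid sums were 19.9 to 23.5 CPM in Pdap1-deficient mice 2 and 3 and at most 11.3 CPM in the other libraries. Pdap1 itself was at 92.8, 91.2 and 97.6 CPM in LPS-IL-4 control mice 1, 2 and 3 and at 23.3, 27.2 and 29.9 CPM in the Pdap1-deficient mice. With LPS-BAFF-TGFβ it was at 198, 80.1 and 100.1 CPM in control and 26.4, 25.96 and 22.9 CPM in Pdap1-deficient mice, so the labels and the targeted gene matched in every library.

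Replication genes were expressed in all 12 libraries, at levels between 7.08 and 167 CPM per kb of exon in LPS-IL-4 control mice when Fen1 is left out. In LPS-IL-4 control mice the highest level was that of Rrm2, the regulated subunit of ribonucleotide reductase, with 167 ± 0.755 CPM per kb (SD, n = 3). It was followed by Mcm3 at 151 ± 4.85, Pcna at 148 ± 2.49 and Mcm4 at 140.3 ± 1.97 CPM per kb, and Mcm3 and Pcna overlapped while Rrm2 and Mcm4 lay apart from their neighbours. Mcm6 (127 ± 5.03) and Mcm5 (121 ± 5.04 CPM per kb) overlapped each other.

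Uhrf1 and Dnmt1 stood at 107 ± 6.97 and 82.7 ± 2.46 CPM per kb, next to Mcm7 at 79.3 ± 0.607 and Dut at 73.7 ± 7.18. Several helicase loaders and activators were lower: Cdc45 was at 31.0 ± 0.374, Cdc6 at 24.8 ± 0.551, Orc1 at 17.3 ± 0.619 and Cdt1 at 19.4 ± 2.54 CPM per kb, in a stretch of the order where most neighbours overlapped. The loader subunits Orc2 (45.5 ± 2.05) and Orc6 (44.5 ± 1.07) stood next to the helicase subunit Mcm2 (43.2 ± 4.01 CPM per kb). The lowest were Gins3 (10.5 ± 0.113), Gins2 (7.08 ± 0.583) and Fen1 (0.562 ± 0.135 CPM per kb). Per kb of the principal transcript, which was annotated for 37 of the genes, Pcna led with 235 CPM per kb, followed by Rrm2 with 211 and Mcm6 with 204 CPM per kb. Tk1 was at 17.1 CPM per kb of exon and at 61.6 CPM per kb of the principal transcript. The order thus rests on the length used, among the highest genes and below them.

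The level of Fen1, the flap endonuclease, rests on few reads, with between 0.824 and 6.63 CPM in a library. In GENCODE annotation 1909 of its 2422 exon bases (78.8%) overlap the antisense gene Gm10143. Exons of Gins2 overlap those of Gse1 on the other strand over 67.3% of their length, those of Chaf1a overlap Ubxn6 over 52.5% and those of Orc2 overlap Nif3l1 over 29.8%. Overlaps with genes of the other strand also cover 15.1% of the exon length of Rfc2, 12.65% of Rfc4, 10.8% of Orc1 and 10.7% of Rfc5, and smaller shares of some others. The strand setting of the counting is not given in the sources used here. The values of Fen1, Gins2, Chaf1a and Orc2 are therefore uncertain, and those of the genes with smaller overlaps may be affected as well.

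**Figure D1:**
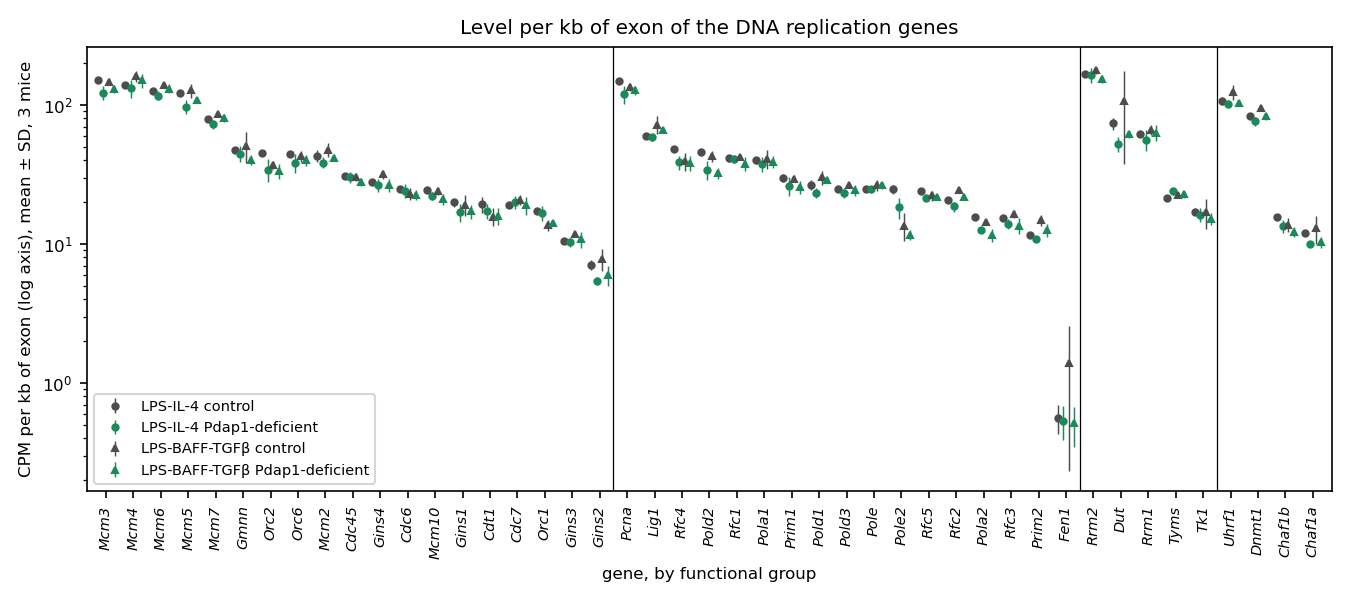
Level of each of the 45 genes in CPM per kb of exon (log axis, mean ± SD, 3 mice) in the 4 groups, by functional group (origin and helicase, polymerase and clamp, nucleotide supply, chromatin). Rrm2, Mcm3 and Pcna were near 150 CPM per kb or above in LPS-IL-4 control mice, and Fen1 was below the others at 0.562 CPM per kb.

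With LPS-IL-4, nearly all replication genes had fitted levels slightly below control in Pdap1-deficient mice, while few passed the test after adjustment. Without 1 mouse fewer lay below and the median was nearer to 0. The fitted log2 fold change (Pdap1-deficient minus control) was below 0 for 43 of 45 genes, against 47.3% of the 15074 genes tested, and its median was -0.13 against 0.021 over all genes tested. Without Pdap1-deficient mouse 2, whose library held 301 CPM of myeloid markers, it was below 0 for 30 of 45 genes (background 49.2%), with a median of -0.060. Only Dut passed edgeR's test at an adjusted p under 0.05, with a lower level, and DESeq2's Wald test called Dut and Pola2 (background 4.24%). In edgeR 4.92% of all genes tested passed and 2.12% were lower. Without adjustment 11 of the 45 had a p under 0.05, all with lower levels (background 11.7% lower and 12.1% higher), and 17 lay below control in every mouse (background 16.1%) while Tyms alone lay above (background 15.5%). The 95% interval was within 1.5-fold in either direction for 37 of the 45 genes. In bulk RNA, fewer cells in S phase, less RNA per cell and a larger part of other cells cannot be told apart, and none of these was tested.

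**Figure D2:**
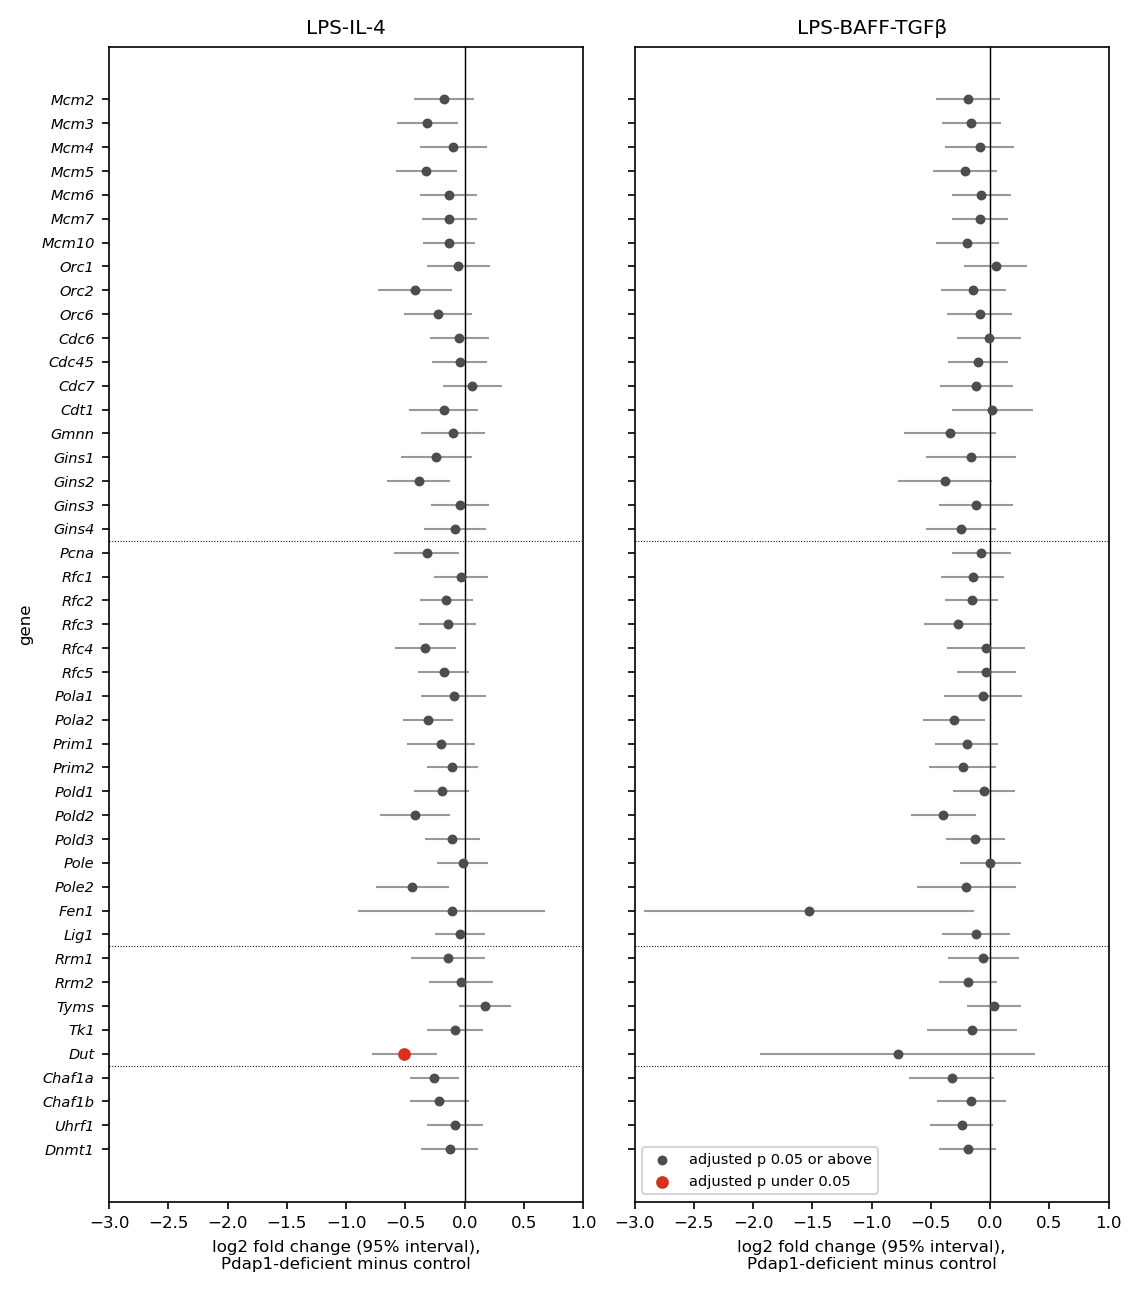
Log2 fold change of each gene, Pdap1-deficient minus control, with its 95% interval (edgeR, 3 mice per group), for LPS-IL-4 on the left and LPS-BAFF-TGFβ on the right, with dotted lines between functional groups. Fitted values lie left of 0 for 43 and 41 of 45 genes, most intervals cross 0, and Dut with LPS-IL-4 is the only gene with an adjusted p under 0.05.

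Among the nucleotide supply genes, Dut (chromosome 2 from 125247190 to 125258608, plus strand, GRCm38), whose enzyme removes dUTP so that uracil is kept out of DNA, was at 164, 172 and 197 CPM in LPS-IL-4 control mice and at 137, 108 and 132 CPM in Pdap1-deficient mice. The genotypes did not overlap. The log2 fold change was -0.51 (SE 0.125, adjusted p = 0.0456, Benjamini-Hochberg adjustment of edgeR's quasi-likelihood F test), and the adjusted p ranged from 0.109 to 0.196 without control mouse 1, 2 or 3 or without Pdap1-deficient mouse 3 and was 0.457 with all 12 libraries in 1 fit. Tyms was at 134, 129 and 127 CPM in control and 158, 137 and 146 CPM in Pdap1-deficient mice. It was the only gene above control in each mouse, and its log2 fold change of 0.17 (SE 0.1, adjusted p = 0.329 in edgeR) did not pass the test. Rrm1 had a log2 fold change of -0.14 (adjusted p = 0.591), which turned to 0.011 without Pdap1-deficient mouse 2. Rrm2 (-0.027) and Tk1 (-0.082 on the log2 scale) were nearer to 0.

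Of the origin and helicase genes 18 of 19 were fitted below 0 with LPS-IL-4, with a median log2 fold change of -0.13. None passed the test in edgeR or DESeq2, and 4 had an unadjusted p under 0.05 in edgeR, all with lower levels (background 11.7% lower). The 3 with the smallest p were Gins2, Orc2 and Mcm5. Gins2, a subunit of the GINS complex of the moving helicase, was at 28.6, 26.8 and 31.6 CPM in control and 23.9, 22.1 and 20.8 CPM in Pdap1-deficient mice (log2 fold change -0.39, SE 0.119, adjusted p = 0.0841). Orc2, of the origin recognition complex, went from 169.5, 184 and 172 CPM to 147, 103 and 146 CPM (log2 fold change -0.42, SE 0.142, adjusted p = 0.11). For Gins2 and Orc2 the groups did not overlap.

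Mcm5 was at 493, 459.8 and 496 CPM in control and 436, 351 and 378 CPM in Pdap1-deficient mice (log2 fold change -0.32, SE 0.116, adjusted p = 0.127). The other helicase subunits ranged from -0.32 for Mcm3 (adjusted p = 0.136) to -0.096 for Mcm4 on the log2 scale, with Mcm2 at -0.17 and Mcm6 and Mcm7 at -0.13. The loaders Cdc6 (-0.044) and Orc1 (-0.053) were close to 0, Cdt1 was at -0.18, and Cdc7, the kinase that activates the helicase, was the only gene of this group fitted above 0, with a log2 fold change of 0.063.

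All 17 polymerase and clamp genes were fitted below 0 with LPS-IL-4 (median log2 fold change -0.16), 7 of them with every Pdap1-deficient culture below control (background 16.1%). None passed the test in edgeR, 5 had an unadjusted p under 0.05 (background 11.7% lower), and DESeq2 called Pola2 (adjusted p = 0.0493). The smallest p-values belonged to 3 accessory subunits. Pola2, the B subunit of polymerase α, was at 134, 124 and 130.1 CPM in control and 108, 103 and 104 CPM in Pdap1-deficient mice (log2 fold change -0.31, SE 0.0937, adjusted p = 0.0827). Pole2, the second subunit of polymerase ε, was at 76.5, 66.9 and 69.9 CPM in control and 60.01, 42.6 and 55.6 CPM in Pdap1-deficient mice (-0.44, SE 0.14, adjusted p = 0.0929). Pold2, an accessory subunit of polymerase δ, was at 82.5, 84.7 and 91.7 CPM in control and 74.1, 53.6 and 67.2 CPM in Pdap1-deficient mice (-0.42, SE 0.133, adjusted p = 0.093).

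In each of these 3 genes the genotypes lay apart in LPS-IL-4 cultures. Pold3, another accessory subunit of polymerase δ, was at -0.10 (adjusted p = 0.594), and the catalytic subunits were at -0.093 (Pola1), -0.19 (Pold1) and -0.017 (Pole) on the log2 scale, all with overlapping groups. The clamp Pcna was at 351, 354.5 and 363 CPM in control and 328, 244 and 287 CPM in Pdap1-deficient mice (log2 fold change -0.32, SE 0.125, adjusted p = 0.154). The clamp loader subunits ranged from -0.33 for Rfc4 (adjusted p = 0.124) to -0.027 for Rfc1, and the ligase Lig1 was at -0.036 on the log2 scale.

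The 4 chromatin genes were fitted below 0 as well, with a median log2 fold change of -0.17. None passed the test in edgeR or DESeq2, and 1 had an unadjusted p under 0.05 in edgeR (background 11.7% lower). Chaf1a, the large subunit of the chromatin assembly factor, was at 103, 103 and 111 CPM in control and at 89.98, 91.3 and 85.6 CPM in Pdap1-deficient mice (log2 fold change -0.26, SE 0.0933, adjusted p = 0.131), and its partner Chaf1b had a log2 fold change of -0.21 (adjusted p = 0.282). Both lay apart between the genotypes. Dnmt1, the maintenance methyltransferase, was at -0.12 (adjusted p = 0.522) and Uhrf1, which recruits it to newly copied DNA, at -0.080 on the log2 scale (adjusted p = 0.69), with overlapping groups.

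With LPS-BAFF-TGFβ none of the 45 genes passed the test between genotypes, where 0.462% of 14079 genes tested did. DESeq2's Wald test called none either (background 0.582%). The fitted log2 fold change was below 0 for 41 of 45 genes (background 49.1%), with a median of -0.15 against 0.0066 over all genes tested. Every Pdap1-deficient culture lay below control for 13 genes (background 9.09%) and above for none (background 9.55%), and 3 genes, Pold2, Pola2 and Fen1, had an unadjusted p under 0.05 (background 5.28% lower and 5.27% higher). The interval lay within 1.5-fold for 38 of the 45.

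Pold2 was at 89.9, 75.9 and 77.4 CPM in LPS-BAFF-TGFβ control mice and at 67.6, 56.2 and 60.2 CPM in Pdap1-deficient mice (log2 fold change -0.39, SE 0.122, adjusted p = 0.335 in edgeR). Pola2 was at 125, 119.9 and 114.5 CPM in control and 99.5, 105 and 84.9 CPM in Pdap1-deficient mice (-0.30, SE 0.117, adjusted p = 0.431). The genotypes did not overlap for either gene. Pold2, Pola2, Mcm3, Mcm5 and Dut were the 5 genes that lay below every control culture of the same stimulation in all 6 Pdap1-deficient libraries, as did 4.89% of the 13793 genes tested in both stimulations.

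The 2 most negative values with LPS-BAFF-TGFβ came with the deep library of control mouse 1. Fen1 was at 6.63, 1.94 and 1.58 CPM in control and 1.61, 0.824 and 1.29 CPM in Pdap1-deficient mice (log2 fold change -1.53, SE 0.609, adjusted p = 0.442). Dut was at 447, 162 and 159 CPM in control and 156, 140.3 and 148 CPM in Pdap1-deficient mice (-0.78, SE 0.457, adjusted p = 0.566). In both genes the high value is that of the deep library alone. Without that library the log2 fold changes were -0.47 for Fen1 and -0.11 for Dut, and the median over the 45 genes was -0.14.

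Of the other origin and helicase genes with LPS-BAFF-TGFβ, Gins2 was at -0.38 (SE 0.176, adjusted p = 0.483), Gmnn at -0.34 (adjusted p = 0.517) and Gins4 at -0.25 (adjusted p = 0.527) on the log2 scale, and their groups overlapped. Without the deep library Gins2 was at -0.23 and Gmnn at -0.11. Orc1 was fitted highest, at 0.046. In nucleotide supply Rrm2 was at -0.19 (adjusted p = 0.539) and Tk1 at -0.15 on the log2 scale (adjusted p = 0.742). Tk1 turned to 0.056 without control mouse 1. The chromatin genes Uhrf1 (-0.24, adjusted p = 0.503), Chaf1a (-0.33, adjusted p = 0.507) and Dnmt1 (-0.19, adjusted p = 0.536) were all fitted below 0, and Uhrf1 and Dnmt1 lay below control in every mouse.

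The lower levels were unequal among the Pdap1-deficient mice. Taking each gene relative to the control mean of the same stimulation, the median over the 45 genes was -0.036, -0.25 and -0.12 on the log2 scale in LPS-IL-4 cultures of Pdap1-deficient mice 1, 2 and 3. With LPS-BAFF-TGFβ it was -0.10, -0.28 and -0.10 in the same mice. Control libraries lay between -0.028 and 0.022, but each is part of the control mean it is compared with, which draws its value toward 0. Mouse 2 was thus lowest in both cultures and mouse 1 was near control with LPS-IL-4. Mouse 2 held the lowest value of its group for 37 of the 45 genes with LPS-IL-4 and for 38 with LPS-BAFF-TGFβ.

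Within the functional groups, the medians of Pdap1-deficient mouse 2 were -0.25 for origin and helicase genes, -0.28 for polymerase and clamp genes, -0.25 for nucleotide supply and -0.21 for chromatin genes on the log2 scale with LPS-IL-4. In mouse 1 they were -0.016, -0.080 (polymerase and clamp), 0.033 (nucleotide supply) and -0.050 (chromatin). The median over all genes kept was 0.075 in the LPS-IL-4 library of mouse 2 and between -0.0057 and 0.012 in mice 1 and 3. The median coefficient of variation of the 45 genes between mice was 3.57% in LPS-IL-4 control, 10.9% in LPS-IL-4 Pdap1-deficient, 8.76% in LPS-BAFF-TGFβ control and 8.9% in LPS-BAFF-TGFβ Pdap1-deficient cultures.

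The same mouse stood apart in markers of myeloid cells. The 6 markers (Lyz2, Itgam, Csf1r, Adgre1, S100a8 and S100a9) summed to 6.75, 301 and 32.0 CPM in LPS-IL-4 Pdap1-deficient mice 1, 2 and 3 and to between 5.03 and 13.6 CPM in control mice. With LPS-BAFF-TGFβ they summed to 11.8, 529.6 and 75.0 CPM and to between 16.3 and 24.2 CPM. Each of the 6 was highest in mouse 2 in both stimulations. T cell markers also were highest in mouse 2 (19.1 and 8.45 CPM). Its B cell markers summed to 2770.0 CPM with LPS-IL-4 and 1913 CPM with LPS-BAFF-TGFβ. These sums were above those of every other mouse but Pdap1-deficient mouse 1 with LPS-BAFF-TGFβ (1925 CPM). The single markers differed: Pax5 was highest in mouse 2 in both stimulations, while Ms4a1 was not. With LPS-IL-4 Ms4a1 was at 994 CPM, below Pdap1-deficient mice 1 and 3 (1085 and 1072 CPM). With LPS-BAFF-TGFβ it was at 537 CPM, below all but control mouse 1 (463 CPM), and Cd79b (252 CPM) also was not highest. The part of myeloid and T cells in the level of the replication genes was not tested, and the values without mouse 2 are as follows.

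Without Pdap1-deficient mouse 2, Dut with LPS-IL-4 was at -0.40 (adjusted p = 0.00749), Pola2 at -0.28 (adjusted p = 0.0293) and Orc2 at -0.26 on the log2 scale (adjusted p = 0.0329), and these 3 of the 45 genes passed edgeR's test, where 9.58% of all genes tested did. With LPS-BAFF-TGFβ the median was -0.11, with 39 genes below 0 (background 53.2%) and none past the test (background 0.229%). The median difference with LPS-IL-4 thus was smaller without mouse 2, while Dut, Pola2 and Orc2 remained below control in the other mice.

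**Figure D3:**
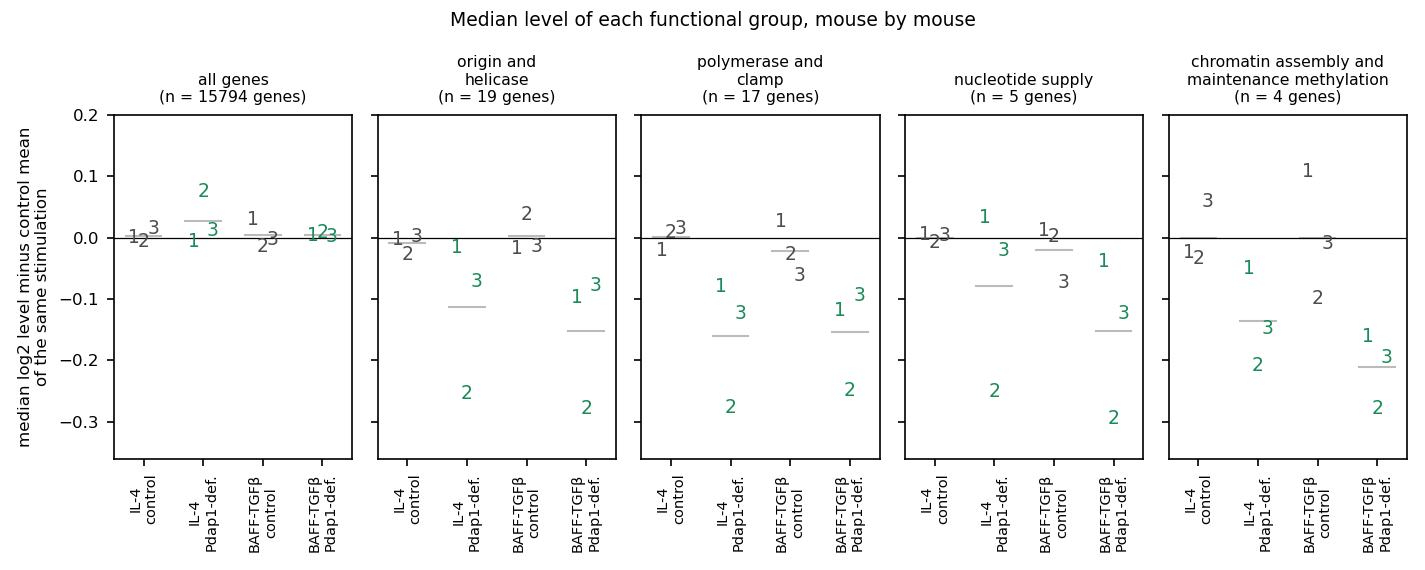
Median over the genes of each functional group of the log2 level minus the control mean of the same stimulation, with each mouse printed as its number (grey, control; green, Pdap1-deficient; line, mean of 3 mice), and all genes kept on the left. Pdap1-deficient mouse 2 is lowest in each functional group under both stimulations, between -0.21 and -0.29. Each control library is part of its own reference, which draws the control values toward 0.

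**Figure D4:**
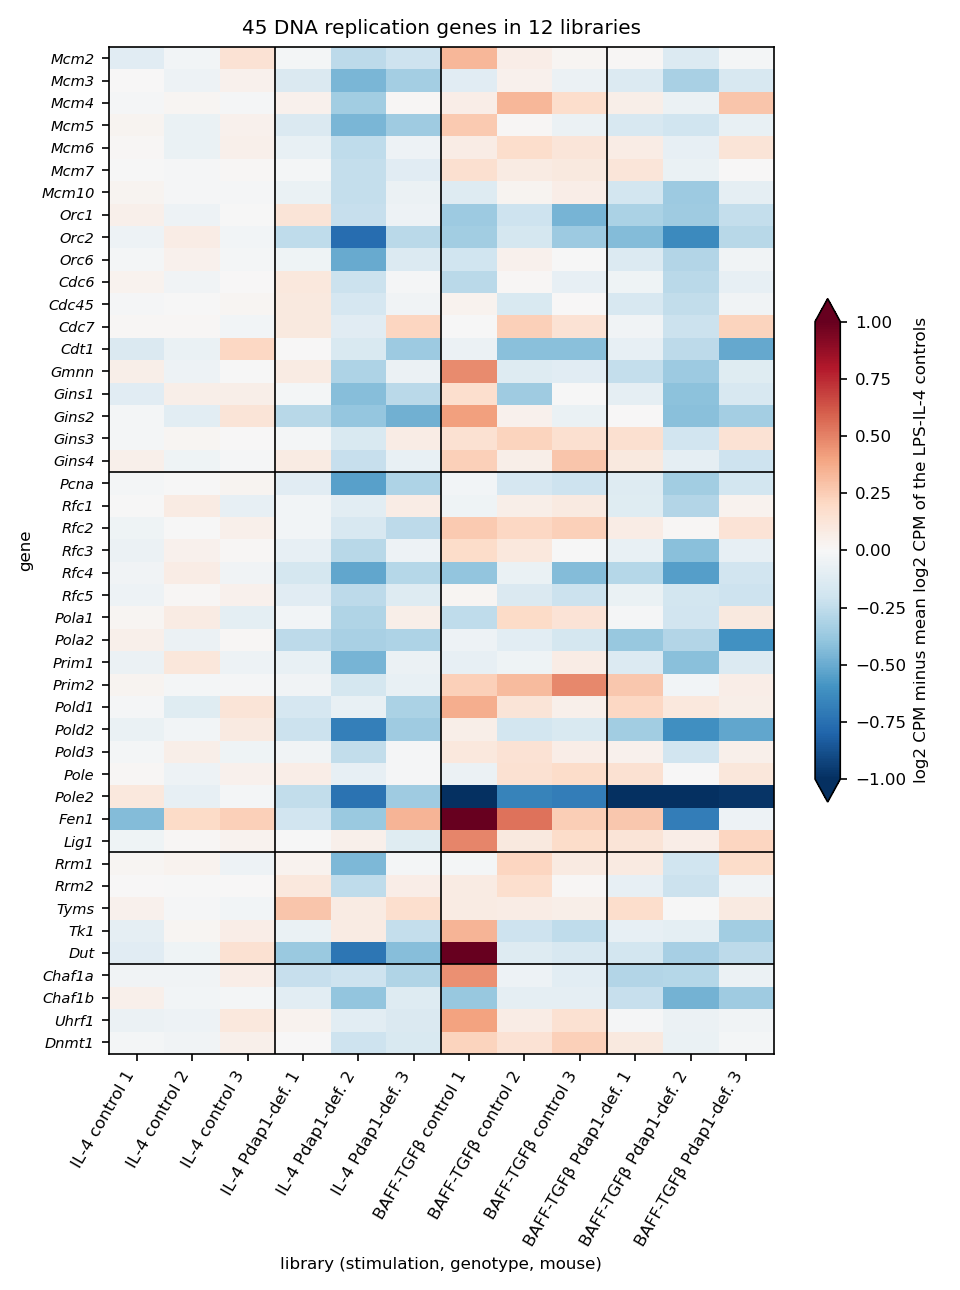
Log2 CPM of the 45 genes (rows, by functional group) in the 12 libraries (columns), minus the mean of the LPS-IL-4 control libraries, with the color scale ending at 1 in each direction. The column of Pdap1-deficient mouse 2 is blue in most rows, Pole2 is blue in all 6 LPS-BAFF-TGFβ libraries, and Dut and Fen1 are dark red in the LPS-BAFF-TGFβ library of control mouse 1.

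Replication genes were compared between stimulations within each genotype, as both cultures induce division while switching to different isotypes. Most of the 45 genes differed little. In control mice 3 passed the test (LPS-BAFF-TGFβ minus LPS-IL-4), where 19.3% of 14882 genes tested did: Pole2 and Orc1 were lower (background 9.33%) and Prim2 was higher (background 9.99%) with LPS-BAFF-TGFβ. Fitted values were above 0 for 27 genes and below for 18 (background 47.1% below), with a median log2 fold change of 0.092 against 0.029 over all genes tested. All LPS-BAFF-TGFβ cultures lay above the LPS-IL-4 cultures for 13 genes (background 19.0%) and below for 6 (background 18.8%). The interval lay within 1.5-fold for 41 of the 45.

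Pole2 (chromosome 12 from 69201773 to 69228195, minus strand, GRCm38) had the smallest p-value between stimulations in both genotypes. It was at 76.5, 66.9 and 69.9 CPM with LPS-IL-4 and at 28.7, 44.8 and 43.9 CPM with LPS-BAFF-TGFβ in control mice 1, 2 and 3 (log2 fold change -0.87, SE 0.175, adjusted p = 0.0101 in edgeR). In Pdap1-deficient mice it was at 60.01, 42.6 and 55.6 CPM with LPS-IL-4 and at 34.4, 30.5 and 35.9 CPM with LPS-BAFF-TGFβ (-0.64, SE 0.146, adjusted p = 0.0192). In each of the 6 mice the LPS-BAFF-TGFβ culture was lower, and in both genotypes the stimulations lay apart. With the mouse as a block the adjusted p was 0.0224 in control and 7.42e-05 in Pdap1-deficient mice. Without the deep library the log2 fold change in control mice was -0.67 (adjusted p = 2.49e-05). The call was lost in control mice without mouse 2 (adjusted p = 0.0516) or mouse 3 (0.102) and in Pdap1-deficient mice without mouse 1 (0.265) or mouse 3 (0.247), with log2 fold changes between -1.03 and -0.54. The catalytic subunit Pole was at 0.098 in control and 0.10 in Pdap1-deficient mice on the log2 scale, and neither passed the test (adjusted p = 0.534 and 0.61). Exons of Pole2 overlap those of Gm49384 on the same strand over 8.5% of their length.

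Orc1 (chromosome 4 from 108579423 to 108614833, plus strand), the largest subunit of the origin recognition complex, was at 62.5, 58.2 and 60.2 CPM with LPS-IL-4 and at 46.9, 52.2 and 43.7 CPM with LPS-BAFF-TGFβ in control mice (log2 fold change -0.34, SE 0.0995, adjusted p = 0.0481). In Pdap1-deficient mice it was at 65.8, 51.2 and 58.2 CPM and at 48.3, 47.2 and 51.1 CPM (-0.25, SE 0.12, adjusted p = 0.239). Prim2 (chromosome 1 from 33453810 to 33669795, minus strand), the large primase subunit, was at 70.5, 68.2 and 68.4 CPM with LPS-IL-4 and at 81.4, 85.7 and 96.5 CPM with LPS-BAFF-TGFβ in control mice (0.35, SE 0.0946, adjusted p = 0.036). The stimulations lay apart for Orc1 and Prim2 in both genotypes. With the mouse as a block neither Orc1 (adjusted p = 0.12) nor Prim2 (adjusted p = 0.101) passed the test in control mice, and without control mouse 2 or 3 both calls were lost as well, at adjusted p between 0.124 and 0.307. Without control mouse 1 that of Orc1 was lost (adjusted p = 0.0819) and that of Prim2 was kept.

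Other genes of the control comparison did not pass the test, and Orc2 and Rfc2 came closest to the threshold. Orc2 was at -0.29 (SE 0.0908, adjusted p = 0.0579) and Rfc2 at 0.24 (SE 0.0776, adjusted p = 0.0685) on the log2 scale. Cdt1 was at -0.29 (adjusted p = 0.19), Dnmt1 at 0.20 (adjusted p = 0.121), Uhrf1 at 0.22 (adjusted p = 0.213) and Chaf1b at -0.18 (adjusted p = 0.294). Pcna (-0.13) and Rfc4 (-0.29) lay lower with LPS-BAFF-TGFβ in each control mouse, without passing the test (adjusted p = 0.328 and 0.135). In nucleotide supply Rrm2 was at 0.092 (adjusted p = 0.492), Rrm1 at 0.10 (adjusted p = 0.513) and Dut at 0.53 (SE 0.446, adjusted p = 0.483).

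Several of these values moved with the deep library. Relative to the other 2 LPS-BAFF-TGFβ control libraries it was higher by 1.84 for Fen1, 1.48 for Dut, 0.59 for Gmnn, 0.57 for Tk1 and 0.53 for Chaf1a on the log2 scale and lower for Pole2 (-0.62), while the median over the 45 genes was 0.033. Without it, 9 of the 45 genes passed the test in control mice, where 31.8% of all genes tested did, with Mcm4, Rfc2, Prim2 and Dnmt1 higher and Orc1, Orc2, Cdt1, Pcna and Pole2 lower with LPS-BAFF-TGFβ. Dut then turned to -0.14 and Fen1, the most positive value at 1.45 (SE 0.566, adjusted p = 0.124), to 0.38.

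In Pdap1-deficient mice only Pole2 passed the test between stimulations, where 11.5% of 14617 genes tested did and 5.89% were lower. DESeq2 likewise called Pole2 alone there (background 6.3%) and in control mice (background 9.33%). Fitted values were above 0 for 25 genes and below for 20 (background 50.3% below), with a median log2 fold change of 0.021 against -0.0025 over all genes tested. The stimulations lay apart for 5 genes with LPS-BAFF-TGFβ above (background 15.0%) and for 2 with it below (background 14.1%). Pold1, the catalytic subunit of polymerase δ, was at 115, 122 and 104 CPM with LPS-IL-4 and at 149, 139 and 135 CPM with LPS-BAFF-TGFβ (log2 fold change 0.31, SE 0.104, adjusted p = 0.0945). Rfc2 was at 0.22 (adjusted p = 0.221), Dut at 0.24 (adjusted p = 0.242), Mcm5 at 0.17 (adjusted p = 0.402) and Mcm6 at 0.17 (adjusted p = 0.41).

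With the mouse as a block 6 genes passed in Pdap1-deficient mice, where 26.4% of all genes tested did: Mcm4, Mcm6, Rfc2, Pold1 and Dut were higher and Pole2 was lower with LPS-BAFF-TGFβ. Pold1 then had an adjusted p of 0.00476, Dut of 0.0215, Rfc2 of 0.0419 and Mcm6 of 0.0452. In control mice the block left only Pole2, where 13.4% of all genes tested passed.

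**Figure D5:**
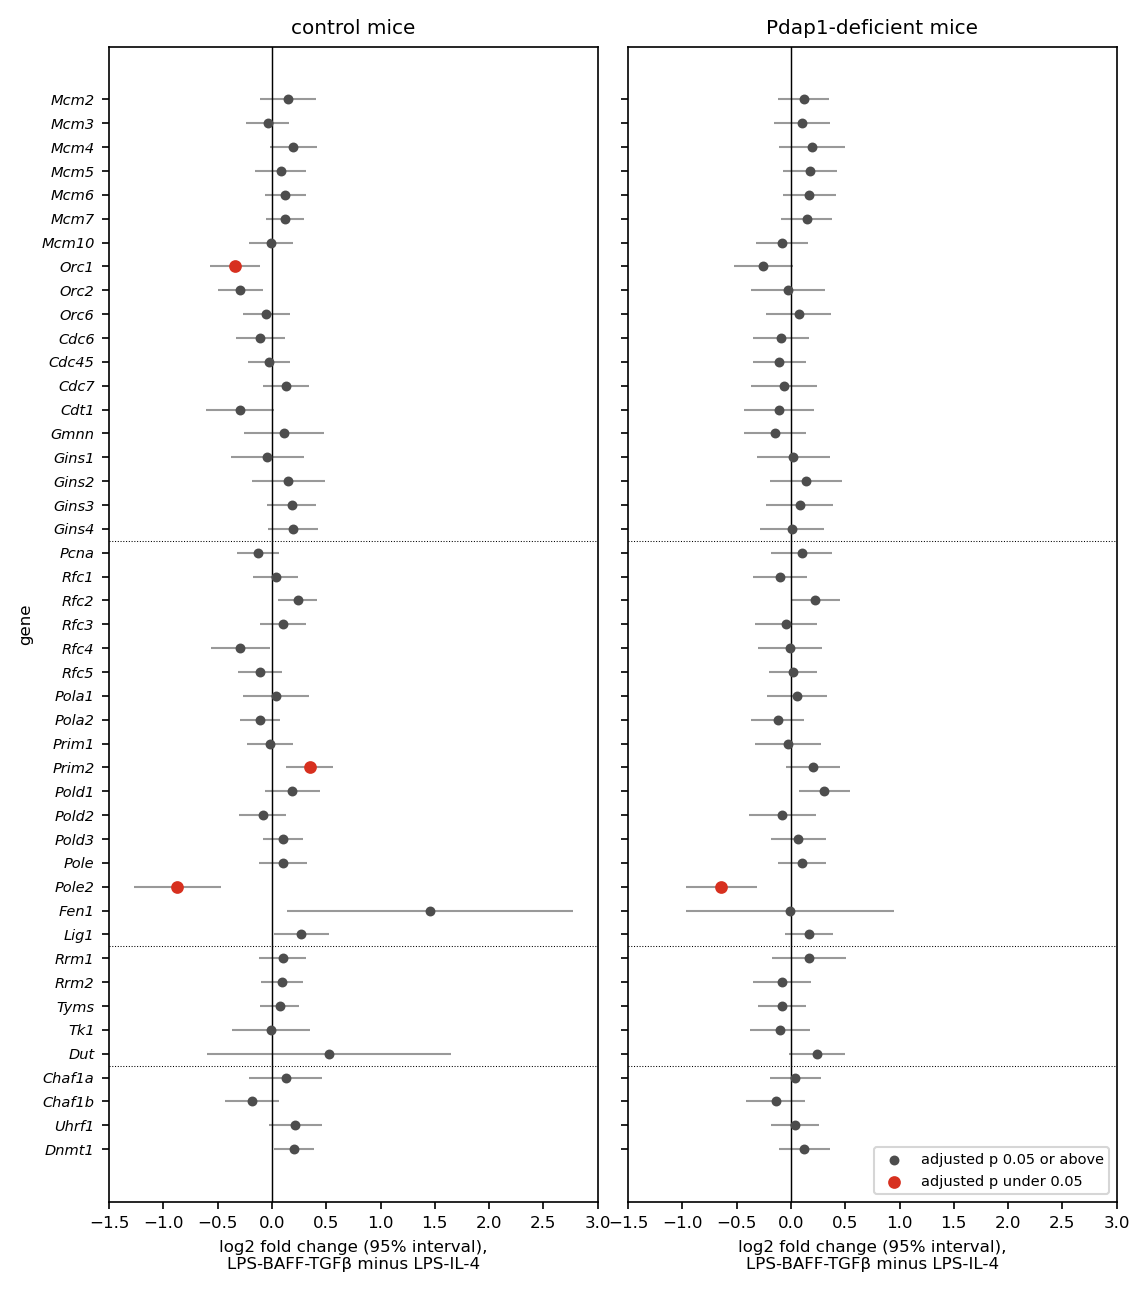
Log2 fold change of each gene, LPS-BAFF-TGFβ minus LPS-IL-4, with its 95% interval (edgeR without block, 3 mice), in control mice on the left and Pdap1-deficient mice on the right. Pole2 is the only gene with an adjusted p under 0.05 in both genotypes, at -0.87 and -0.64, and Fen1 and Dut have the widest intervals in control mice.

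Whether the genotype difference itself depended on the stimulation was tested with the interaction term over all 12 libraries. None of the 45 genes passed edgeR's test (0.0% of 15794 genes tested did), and none had an unadjusted p under 0.05 (background 1.61% higher and 3.17% lower). DESeq2 called 6 genes in all (0.019%) and none of the 45. Estimates were below 0 for 25 of the 45 genes (background 55.7%). The interval of the interaction lay within 1.5-fold for 38 of the genes. This fit had no block for the mouse, so the 2 cultures of a mouse were treated as independent. The most negative and most positive estimates were those of Fen1 (-1.43, SE 0.739, adjusted p = 0.983) and Rfc4 (0.28, SE 0.185, adjusted p = 0.983). For Pold2 it was 0.0075 (95% interval -0.38 to 0.39), for Pola2 -0.013 (-0.30 to 0.28) and for Pole2 0.23 (-0.29 to 0.74) on the log2 scale. Dut, at -0.29 (-1.40 to 0.81), turned to 0.38 without the deep library.

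The genotype difference was also described by promoter. With LPS-IL-4 the median log2 fold change between genotypes was -0.13 over the 16 genes with a match, -0.18 over the 21 without and -0.10 over the 8 that the promoter table does not hold. With LPS-BAFF-TGFβ the values were -0.12, -0.15 and -0.20. These are descriptions without a test.

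Further genes of the same processes were taken from 6 lists. Over all genes tested between genotypes with LPS-IL-4, 47.3% were fitted below 0, 4.92% passed edgeR's test and 2.12% were lower. With LPS-IL-4, of 12 other licensing and origin firing genes 7 were fitted below 0 in Pdap1-deficient cultures, and Mtbp, which works with treslin in origin firing, was higher, with 88.6 ± 4.32 CPM in control and 119.6 ± 7.8 CPM in Pdap1-deficient mice (SD, n = 3; log2 fold change 0.42, SE 0.103, adjusted p = 0.0448 in edgeR). Of 19 other fork and lagging strand genes tested 13 were below 0 and none passed, with Dna2, a nuclease of Okazaki fragments, at -0.40 (adjusted p = 0.0699) and Chtf18 at -0.38 (adjusted p = 0.0814).

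Among 9 other nucleotide supply genes 5 were below 0, and Dctpp1, a dCTP pyrophosphatase that like Dut removes unwanted nucleotides, was lower, with 39.1 ± 4.14 CPM in control and 19.98 ± 2.83 CPM in Pdap1-deficient mice (log2 fold change -0.98, SE 0.141, adjusted p = 0.00564). Of 11 other chromatin genes 9 were below 0 and none passed, with Set at -0.52 (adjusted p = 0.0703) and Asf1b at -0.31 (adjusted p = 0.196). Of 17 E2F family genes and S phase cyclins 10 were below 0, and E2f2, an activating E2F, was higher, with 51.0 ± 6.72 CPM in control and 76.3 ± 6.69 CPM in Pdap1-deficient mice (0.57, SE 0.121, adjusted p = 0.0288). Of 15 G2 and M phase genes tested 11 were below 0 and none passed, with Cenpf at 0.35 (adjusted p = 0.0792) and Cenpe at 0.26 (adjusted p = 0.207). The background for these lists was 47.3% below 0 and 4.92% past the test.

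The medians of these lists with LPS-IL-4 were -0.043, -0.14 (fork and lagging strand), -0.063 (nucleotide supply), -0.19 (chromatin), -0.024 (E2F and cyclins) and -0.10 (G2 and M phase), against -0.13 for the 45 genes. Pdap1-deficient mouse 2 was also low in the last lists, with medians of -0.24 over E2F and cyclin genes and -0.29 over G2 and M phase genes. With LPS-BAFF-TGFβ no gene of the 6 lists passed edgeR's test between genotypes, and 6 had an unadjusted p under 0.05 (background 5.28% lower and 5.27% higher). Fitted values were below 0 for 2 of 12 licensing genes, 15 of 19 fork genes, 5 of 9 nucleotide supply genes, 8 of 11 chromatin genes, 11 of 17 E2F and cyclin genes and 8 of 15 G2 and M phase genes. Over all genes tested with LPS-BAFF-TGFβ 49.1% were below 0 and 0.462% passed. The smallest p-values there belonged to Mtbp (0.49, adjusted p = 0.343) and Nme1 (-0.73, adjusted p = 0.354).

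Between stimulations, the further genes that passed the test in control mice included Samhd1, a dNTP hydrolase, which was lower with LPS-BAFF-TGFβ (244 ± 14.5 CPM with LPS-IL-4 against 73.6 ± 2.65 CPM, a log2 fold change of -1.73, adjusted p = 7.19e-06). Rrm2b (0.52) was higher in the same list. Of the other lists, none of 12 licensing genes passed, Clspn (0.36) rose among fork genes and Asf1b (-0.39) fell among chromatin genes. Ccne1, cyclin E1 of the entry into S phase, was lower (62.7 ± 6.43 and 38.6 ± 4.43 CPM, -0.69, adjusted p = 0.00468), while Tfdp2 (0.95) and Rbl2 (0.40) were higher. Of 15 G2 and M phase genes 4 were higher (Ccnb2, Bub1b, Cenpe and Cenpf) and none lower. Over all genes tested in control mice 9.99% passed as higher and 9.33% as lower.

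In Pdap1-deficient mice Samhd1 (-1.95, adjusted p = 0.0198), Ccne1 (-0.68, adjusted p = 0.00397) and E2f2 (-0.50, adjusted p = 0.0445) were lower with LPS-BAFF-TGFβ. Tfdp2 (0.69), Ccnb2 (0.48), Cenpf (0.38) and Cenpe (0.41) were higher, and no licensing, fork or chromatin gene of the lists passed. Over all genes tested in Pdap1-deficient mice 11.5% passed and 5.89% were lower. None of the further genes passed edgeR's interaction test, where 1 had an unadjusted p under 0.05 (background 1.61% higher and 3.17% lower).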

How the data were processed

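RNA of 12 cultures (48 h) was sequenced, in 4 groups of 3 mice taken from the labels and the series description. The labels call the cells CH12 and the kit an mRNA kit. The study's methods, followed here, describe splenic B cells from mice and a stranded kit for total RNA depleted of ribosomal RNA. The authors trimmed reads with Trim Galore 0.6.1, mapped them to GRCm38 with STAR 2.6 and counted them per Ensembl gene with HTSeq 0.9.1, and the deposited table holds raw counts without normalization. A second deposited table, of counts divided by a size factor per library, was not used. The annotation release and the strand setting of the counting are not given in the sources used here. Symbols, positions and exon lengths came from GENCODE M21 (GRCm38), which matched 55450 of 55536 features, and promoters from RefSeq (GRCm38.p6).

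Counts were filtered with filterByExpr, scaled by TMM and tested with the robust quasi-likelihood F test of edgeR 4.0.16 (R 4.3.3), with Benjamini-Hochberg adjustment over all genes tested at 0.05. Each comparison used its own 6 libraries and the interaction all 12. The SE is the log2 fold change divided by the square root of F. Log2 levels by library used a prior count of 2. "Apart" means that the 3 libraries of a group do not overlap those of the other. With 3 mice per group an exact permutation test of a gene cannot give a p under 0.1. DESeq2 1.42.0 was an alternative, and the steps were tested on simulated data. Depth was 4579793 to 69500640 counts, and the spread between mice set the precision: the median biological coefficient of variation of the replication genes was between 11.5% and 14.5%, that of all genes between 16.6% and 19.9%.

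The genes, lists, tests and alternatives were chosen with earlier results of these data known. Any of the 45 genes may be named. Full statistics are given for the 3 smallest p-values of each functional group, for the extreme values and for genes apart against their group's median, and from further lists for genes past the test or the 2 with the smallest p. Mouse numbers pair the cultures of a mouse by the series description: deviations of the same mouse correlated at 0.29 to 0.62 in Pdap1-deficient and at -0.18 to 0.34 in control mice. Libraries with different numbers correlated at -0.58 to 0.012 in Pdap1-deficient and at -0.41 to 0.37 in control mice. In control mice the correlations thus do not set same-numbered libraries apart from the others. Between genotypes the numbers belong to different mice. 1 gene of the B cell marker list is not reported here.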

Additional observations from a re-analysis of the deposited data

How the results depend on the processing

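The number of replication genes called rests on few mice, and most are near the threshold. Between genotypes with LPS-IL-4 it was 1, and it was 4 with no filter on low counts, 2 with DESeq2's Wald test and 0 with all 12 libraries in 1 fit or at an adjusted p under 0.01. Leaving out each mouse in turn gave between 0 and 6 calls, in fits that called between 0.44% and 11.4% of all genes tested, the 6 in the fit with 11.4% (without Pdap1-deficient mouse 1), and Rrm1 lay between -0.25 and 0.011, above 0 without Pdap1-deficient mouse 2. The replicate block, by numbers that different mice share, left this count at 1, with 641 calls over all genes against 741, and gave 0 calls among the replication genes with LPS-BAFF-TGFβ. Same-numbered libraries of the 2 genotypes had correlations of deviations from -0.20 to 0.0083 (LPS-IL-4) and from -0.21 to 0.10 (LPS-BAFF-TGFβ). With LPS-BAFF-TGFβ no alternative called a replication gene, Orc1 turned to -0.019 without a filter, -0.14 after thinning to the smallest library and -0.014 without control mouse 3, with values up to 0.12 as mice were left out, and Tk1 lay between -0.26 and 0.056, the latter without control mouse 1. Over all genes tested, calls with LPS-BAFF-TGFβ went from 65 to 257 without a filter, 172 with DESeq2, 133 with all libraries in 1 fit and 18 after thinning, and with LPS-IL-4 from 741 to 1694 without a filter and 1217 with DESeq2.

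Between stimulations in control mice the 3 calls became 1 without a filter, with DESeq2, with the mouse as a replicate block or after thinning, 0 at an adjusted p under 0.01, and 9 without the deep library (31.8% of all genes), an alternative chosen after seeing the data. Leaving out each mouse gave between 0 and 5 calls, with between 6.09% and 27.4% of all genes called. The median log2 fold change of 0.092 was 0.069 with DESeq2, 0.058 after thinning, 0.051 without the deep library and between 0.024 and 0.091 with a mouse left out. Dut lay between -0.19, without mouse 1, and 0.84 as mice were left out, and turned to -0.14 without the deep library. In Pdap1-deficient mice the 1 call became 6 with the replicate block (3854 calls over all genes against 1675), 2 after thinning, 0 at an adjusted p under 0.01 and between 0 and 2 with a mouse left out (between 2.26% and 16.5% of all genes), and Uhrf1 turned to -0.0077 after thinning. In the interaction Chaf1a lay between -0.23 and 0.14, and Dut between -0.62 and 0.45, as mice were left out, each above 0 without control mouse 1 and, at 0.11 and 0.38, without the deep library. The cause of these differences was not tested. The block changed no call on a replication gene in the interaction. Of the values of single genes under an alternative, 765 kept their direction and side of the threshold, 27 lost a call, 22 gained a call and 12 changed direction.

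The half-width of the 95% interval was between 0.22 and 0.34 on the log2 scale at the median over the 45 genes in the 5 comparisons, the widest in the interaction, and up to 1.59 for Fen1. A difference smaller than its half-width has an interval that includes 0. Larger ones could also miss the adjusted threshold of edgeR's test. With LPS-IL-4, Orc2 was at -0.42 between genotypes (95% interval -0.73 to -0.10, adjusted p = 0.11).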

Other observations

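The LPS-BAFF-TGFβ library of control mouse 1 differed from the other 2 libraries of its group by amounts that varied with exon length. The median log2 difference over genes was 0.099 for 2400 genes with exons up to 1000 bases, 0.20 for 2097 genes above 1000 and up to 2000 bases and 0.11 for 4426 genes up to 4000 bases. It was 0.014 for 4746 genes up to 8000 bases and -0.13 for 2109 longer genes. Dut (2410 bases of exon) and Fen1 (2422 bases) lay far above the median of their class, at 1.48 and 1.84, and Pole2 (2881 bases) lay below it, at -0.62.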
